A study of Aedes aegypti with 8 samples.

Results

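The C-type lysozymes described here are gene identifiers of *Aedes aegypti*, the yellow fever mosquito, that were chosen by their annotation as lysozyme C and not by any measured value. The choice listed 6 identifiers, of which AAEL003723, AAEL015404 and AAEL003712 were analysed here, among 19712 identifiers in the count table. AAEL009670, AAEL005988 and AAEL010100 were not analysed here. The study's annotation names AAEL015404 as a C-type lysozyme, while for AAEL003723 and AAEL003712 the name rests on the list alone. That list was proposed with earlier results of these data known. RNA sequencing of polyA RNA was performed on midguts dissected from sugar-fed females of the Liverpool strain, 3 to 5 days old. Per the study's methods, the sucrose given to the mosquitoes before dissection also held antibiotics. The midguts were kept outside the body for 35 h in serum-free Schneider's medium with antibiotics, either with 10 µM heme, added as hemin chloride, or with 0 µM heme. Each treatment had 4 biological replicates. Several midguts were pooled per replicate, so values describe pools and not single insects. Heme was given alone to explanted tissue, so neither group received the proteins or cells of a blood meal.

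Lysozymes of the C type, named after the enzyme of chicken egg white, are small secreted enzymes that cut the sugar backbone of peptidoglycan, the polymer of bacterial cell walls. In mosquitoes they are made in salivary glands, midgut, fat body and hemocytes, and they are known as part of the defence against bacteria. The mosquito midgut holds bacteria that multiply when the female takes blood, and heme is released in the same lumen as hemoglobin is digested. The question asked here was whether the lysozyme transcripts of the midgut differed between tissue held with heme and tissue held without it.

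Total counts were 50531043 to 56947544 in the 10 µM heme libraries and 46027977 to 54897568 in the 0 µM heme libraries. A run of 26 consecutively numbered identifiers took 1.69% to 6.69% of counts in 10 µM heme replicates 1, 3 and 4, but 0.0946% in 10 µM heme replicate 2 and 0.0968% to 0.190% in the 0 µM heme libraries. When these 26 were removed before fitting, the log2 fold change of AAEL003723 was -1.32 (edgeR exact test, adjusted p = 0.00575) and that of AAEL015404 was -0.52 (adjusted p = 0.107), close to the values given for all identifiers below. In addition, 0 µM heme replicate 1 stood apart over all identifiers tested. The median squared difference of scaled counts, divided by the sum of the compared counts, was 5.91 to 6.19 between this library and the other 0 µM heme libraries, 1.72 to 2.60 among those, and 2.96 between it and 10 µM heme replicate 1, where counting error alone would give 0.455. Among the 10 µM heme libraries, replicate 1 lay 3.46 to 7.87 from the others, and those lay 2.36 to 3.68 from each other. Replicate 2 of that group was 2.36 from replicate 3 and 2.70 from replicate 4. The study describes 0 µM heme replicate 1 and 10 µM heme replicate 2 as lying away from their groups. The results without them are given below for the 2 lysozymes tested. Levels are given as CPM, the count relative to the library total, after scaling by the trimmed mean of M-values (TMM). CPM is not corrected for transcript length, so the levels of different genes were not ranked against each other.

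Of the 2 lysozymes tested, 1 was called lower with heme by edgeR's exact test, which called 4.63% of all identifiers tested. That call was lost under some of the alternatives given below. AAEL003723 was 2.50-fold lower in 10 µM heme midguts, and its groups did not overlap, as was so for 10.2% of all identifiers tested. AAEL015404 had a log2 fold change of -0.52 ± 0.19 (SE, n = 4 per group) and did not pass the test. AAEL003712 had too few counts to enter it. All 3 had a lower mean with heme, but only AAEL003723 was called by the exact test.

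AAEL003723 had 9.62, 6.68, 5.09 and 7.26 CPM in 10 µM heme replicates 1 to 4, against 31.4, 17.1, 10.6 and 12.5 CPM in 0 µM heme replicates 1 to 4. Every 10 µM heme library lay below every 0 µM heme library, but the gap was narrow, with 9.62 CPM as the highest value with heme and 10.6 CPM as the lowest without it. The means were 7.16 ± 1.88 CPM (SD, n = 4) at 10 µM and 17.9 ± 9.41 CPM (SD, n = 4) at 0 µM heme. The spread was unequal, since the highest library was 1.89 times the lowest with heme and 2.97 times the lowest without it. The highest of all libraries was 0 µM heme replicate 1, which stood apart from its group over all identifiers. The library nearest to it over all identifiers, 10 µM heme replicate 1, was the highest of the heme group.

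The log2 fold change of AAEL003723 was -1.32 ± 0.39 (SE, n = 4 per group), at an adjusted p = 0.00599 in edgeR's exact test. Of 11095 identifiers tested, 4.63% were called at adjusted p 0.05, and 2.42% were called lower with heme. Of the 2 lysozymes tested, 1 was called, a number too small to set against that background. Over all identifiers tested, the groups did not overlap for 10.2%. The fold change of AAEL003723 was exceeded in size by 63 of the tested identifiers on the lower side, 44 of which were among the 268 called lower. By p-value, 270 identifiers came before it. Its biological coefficient of variation in the fit was 33.2%, against a median of 18.5% over all identifiers tested, with 89.7% of them below it.

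The call for AAEL003723 depended on the test and on single libraries. It was not made by edgeR's quasi-likelihood test (log2 fold change -1.32, adjusted p = 0.0772, with 2.85% of identifiers called), nor by the exact test when 10 µM heme replicate 3 was omitted (-1.19, adjusted p = 0.0624). Without 0 µM heme replicate 1 the log2 fold change was -0.90 and the call was kept (exact test, adjusted p = 0.0104), and without that library and 10 µM heme replicate 2 it was -0.88 and the call was lost (adjusted p = 0.0581). With replicate 1 of both treatments left out, an alternative chosen after the data were seen, it was -1.09 and called (adjusted p = 0.000230).

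**Figure D1:**
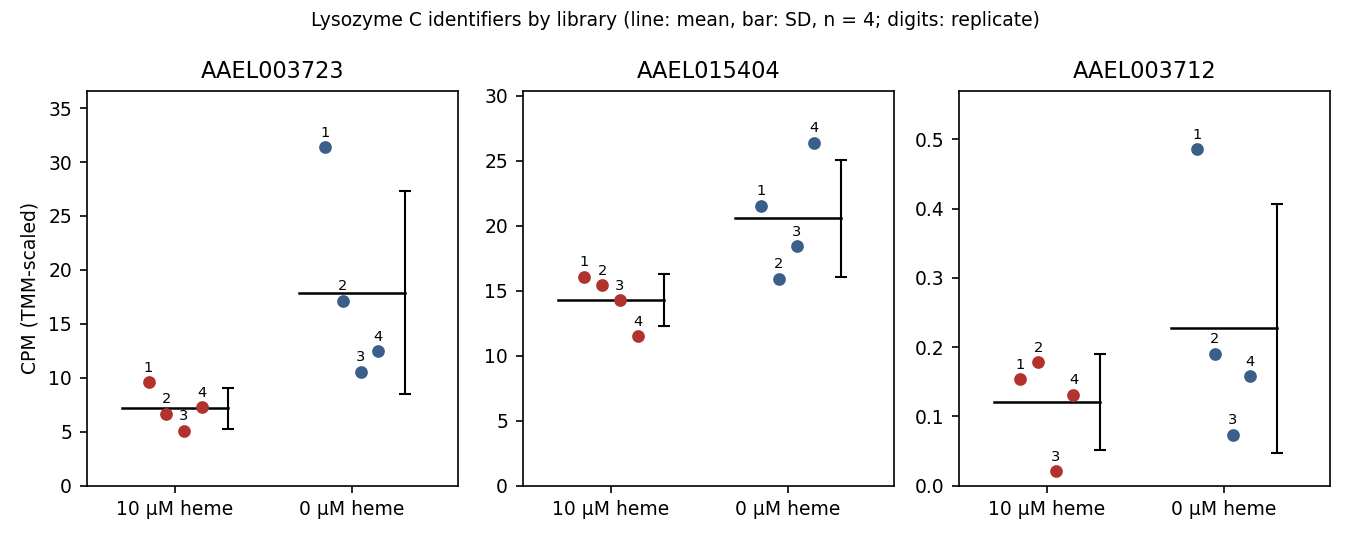
TMM-scaled CPM of AAEL003723, AAEL015404 and AAEL003712 (vertical axes, each from 0 with its own range) in the 10 µM heme and 0 µM heme libraries. Each point is a library with its replicate number, the line is the mean and the bar 1 SD (n = 4). For AAEL003723 the 10 µM heme points end at 9.62 CPM and the 0 µM heme points begin at 10.6 CPM, while the groups overlap for the other 2 genes.

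AAEL015404, which the study's annotation names LYSC7B, a C-type lysozyme, was the steadier of the tested lysozymes. It had 16.1, 15.4, 14.3 and 11.5 CPM in 10 µM heme replicates 1 to 4, against 21.5, 15.9, 18.4 and 26.4 CPM in 0 µM heme replicates 1 to 4. The groups overlapped by 1 library, because 0 µM heme replicate 2 lay just under 10 µM heme replicate 1 and above the other 10 µM heme libraries. The means were 14.3 ± 2.02 CPM (SD, n = 4) at 10 µM and 20.6 ± 4.52 CPM (SD, n = 4) at 0 µM heme. The log2 fold change of -0.52 ± 0.19 did not pass over all identifiers tested (edgeR exact test, p = 0.00661, adjusted p = 0.104). Its coefficient of variation in the fit, 18.5%, was about the median of all identifiers. The same gene was called with scaling by library totals (log2 fold change -0.62, adjusted p = 0.0265, with 3.98% of identifiers called) and when 0 µM heme replicate 2 was omitted (-0.63, adjusted p = 0.0354). It stayed without a call in the other 18 of 20 alternatives. In the exact test it had -0.50 without 0 µM heme replicate 1 (adjusted p = 0.187). Without that library and 10 µM heme replicate 2 it had -0.55 (adjusted p = 0.271), and without 0 µM heme replicate 4 it had -0.38 (adjusted p = 0.425).

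AAEL003712 was close to the limit of detection. It had 7, 10, 1 and 8 counts in 10 µM heme replicates 1 to 4, against 22, 11, 4 and 9 counts in 0 µM heme replicates 1 to 4. These counts correspond to 0.154, 0.178, 0.0206 and 0.131 CPM with heme and to 0.486, 0.191, 0.0735 and 0.158 CPM without it. The groups overlapped, and only 0 µM heme replicate 1 stood above all 10 µM heme libraries by more than a few counts. In a fit without a filter on low counts, over 17731 identifiers, its log2 fold change was -0.89 (edgeR exact test, adjusted p = 0.972). Counting error alone was at least 31.6% of the value in each 10 µM heme library and at least 21.3% in each 0 µM heme library. Its biological coefficient of variation beyond counting error was also high in that fit, at 56.2%, though estimated from these few counts. How far depth or replicate spread limited the comparison was not tested. For AAEL003723 counting error was at most 6.36%, and for AAEL015404 at most 3.80%, both below the coefficients of variation given above.

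**Figure D2:**
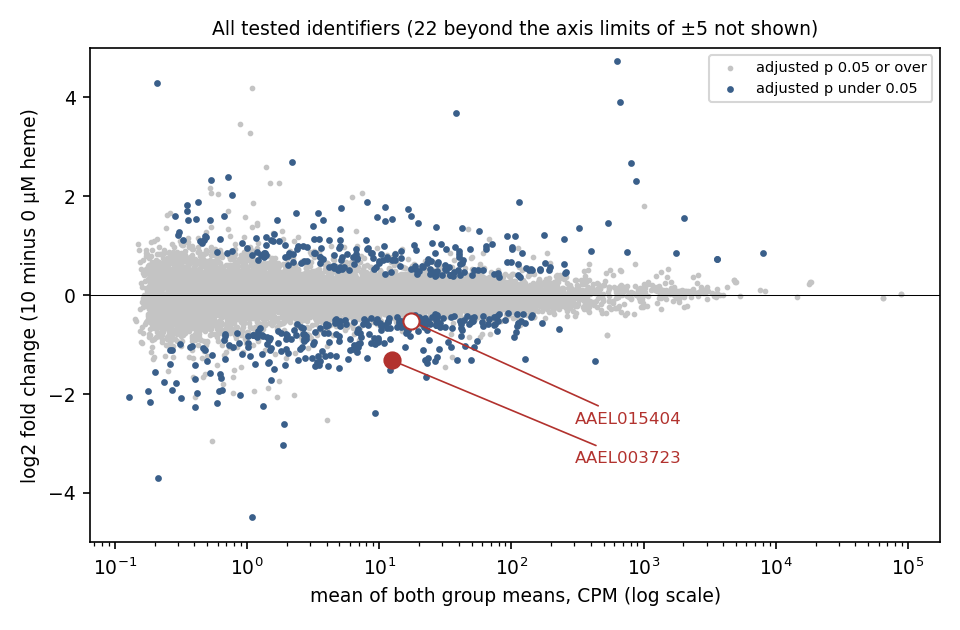
Log2 fold change (10 minus 0 µM heme, vertical axis) against the mean CPM of both groups (horizontal log axis) for the identifiers tested. Grey points did not pass adjusted p 0.05 in the edgeR exact test and blue points did; the large red points are AAEL003723 (filled, -1.32, called) and AAEL015404 (open, -0.52, not called), and 22 identifiers beyond ±5 are not drawn.

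The lysozymes did not share one pattern over the libraries. AAEL003723 was highest in replicate 1 of both treatments and lowest in 10 µM heme replicate 3. AAEL003712 also had its highest level in 0 µM heme replicate 1 and its lowest in 10 µM heme replicate 3, but from few counts. AAEL015404 was highest in 0 µM heme replicate 4 and lowest in 10 µM heme replicate 4. After each gene was centred on its own mean log2 CPM, AAEL003723 and AAEL015404 differed by a root mean square of 0.63 over the 8 libraries, against a root mean square of 0.78 for AAEL003723 about its own mean.

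The ratio of AAEL003723 to AAEL015404 within a library does not depend on how libraries are scaled. It was 0.599, 0.434, 0.357 and 0.631 in 10 µM heme replicates 1 to 4, against 1.46, 1.08, 0.574 and 0.473 in 0 µM heme replicates 1 to 4. The groups overlapped, with the 2 highest ratios in 0 µM heme replicates 1 and 2. Transcript length enters each ratio in the same way in every library, so the values can be compared between libraries but do not say which transcript was more abundant.

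Summed over the 3 genes, lysozyme CPM was 25.8, 22.3, 19.4 and 18.9 in 10 µM heme replicates 1 to 4, against 53.4, 33.2, 29.0 and 39.0 in 0 µM heme replicates 1 to 4. The sums of the groups did not overlap, as was so for 10.2% of the single identifiers tested. The means of the sums were 21.6 ± 3.20 and 38.7 ± 10.6 CPM (SD, n = 4 each) at 10 and 0 µM heme. AAEL003723 held 26.3% to 38.4% of these counts in the 10 µM heme libraries and 32.0% to 58.8% in the 0 µM heme libraries. Nearly all of the remaining counts were those of AAEL015404. No test was made on the sum, which adds genes chosen together.

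The 2 identifiers whose pattern over the 8 libraries was most like that of AAEL003723, by the smallest root mean square difference of centred log2 CPM, were AAEL003739 (0.15) and AAEL003107 (0.27). Neither carries a gene name in the sources used here. AAEL003739 had 12.9, 10.2, 7.52 and 10.4 CPM in 10 µM heme replicates 1 to 4, against 34.8, 20.4, 13.3 and 16.5 CPM in 0 µM heme replicates 1 to 4. As in AAEL003723, replicate 1 was highest within each treatment, replicate 3 was lowest, and the groups did not overlap. Because both identifiers were picked for their likeness to AAEL003723, their own fold changes of -1.05 and -1.57 (log2) are a description. No identifier had counts within 2% of those of AAEL003723 or AAEL015404 in all 8 libraries, so there was no sign that their reads were counted whole at a second identifier.

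**Figure D3:**
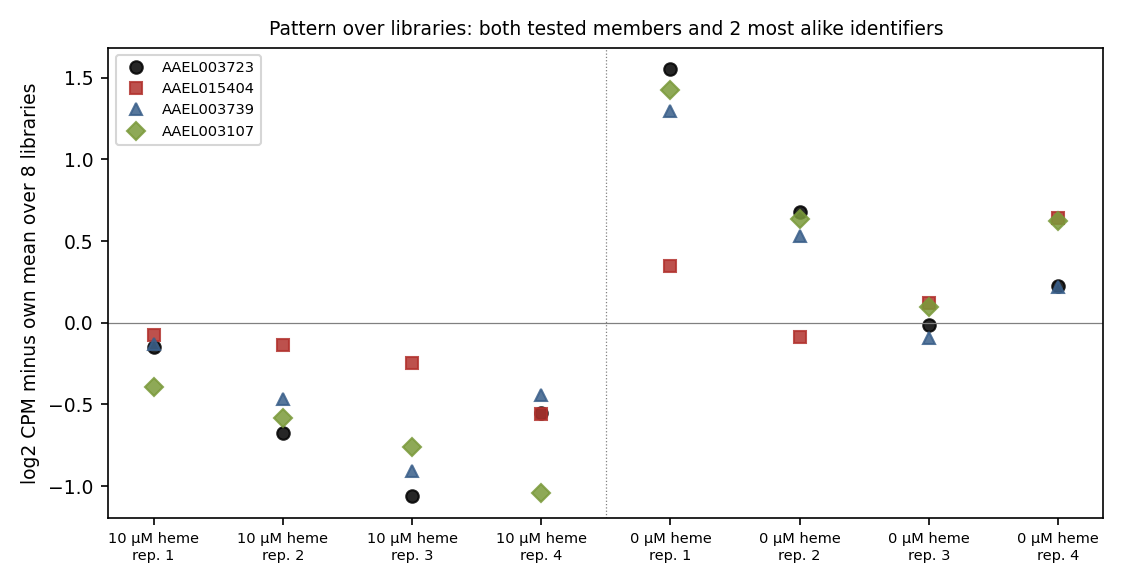
Log2 CPM minus the gene's own mean over 8 libraries (vertical axis) in each 10 µM heme and 0 µM heme library (horizontal axis) for AAEL003723, AAEL015404 and the 2 identifiers most like AAEL003723. AAEL003739 stays within a root mean square of 0.15 of AAEL003723, whereas AAEL015404 lies 0.63 from it and departs most in 0 µM heme replicate 1.

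Few other genes could be set beside the lysozymes by name. AAEL011612, annotated as a C-type lectin, a protein that binds sugars on microbial surfaces, was the 1 further immune gene that the study's annotation gave. It had 0.279 to 0.320 CPM at 10 µM and 0.221 to 0.416 CPM at 0 µM heme, with overlapping groups (log2 fold change -0.01 ± 0.17, SE; edgeR exact test, adjusted p = 1.0). Of this list, 0 of 1 gene passed in either direction, against 4.63% of all identifiers tested. With 10 to 24 counts per library, this single gene says little about other immune genes.

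The labelled tissue was examined with the few markers that the study's annotation names. AAEL002273, a putative trypsin, a digestive protease, had 0.160 to 0.350 CPM with heme and 0.229 to 0.486 CPM without it. AAEL010536, an alpha-amylase, had 0.0985 to 0.242 and 0.0352 to 0.165 CPM at 10 and 0 µM heme. Both were near 0, so these 2 identifiers did not show the midgut epithelium. AAEL009853, which the study's text names as a trypsin or serine protease and which was added after its values were seen, had 9.13, 8.39, 9.17 and 8.59 CPM in 10 µM heme replicates 1 to 4, against 14.96, 11.4, 14.7 and 15.1 CPM in 0 µM heme replicates 1 to 4. It was lower with heme in groups that did not overlap (log2 fold change -0.67 ± 0.10, SE; edgeR exact test, adjusted p = 0.000540), and its part in the lysozyme result was not tested. The study reports AAEL009853 as differentially expressed in cultured A20 cells too, so its counts do not mark the midgut epithelium. AAEL000485, annotated as a putative paramyosin, a protein of muscle such as the muscle fibres around the gut, had 107 to 119 CPM with heme and 108 to 135 CPM without it. It differed little between treatments (log2 fold change -0.09 ± 0.08, SE; edgeR exact test, adjusted p = 0.907). In pooled tissue, fewer cells that make lysozyme and less lysozyme RNA per cell cannot be told apart.

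**Figure D4:**
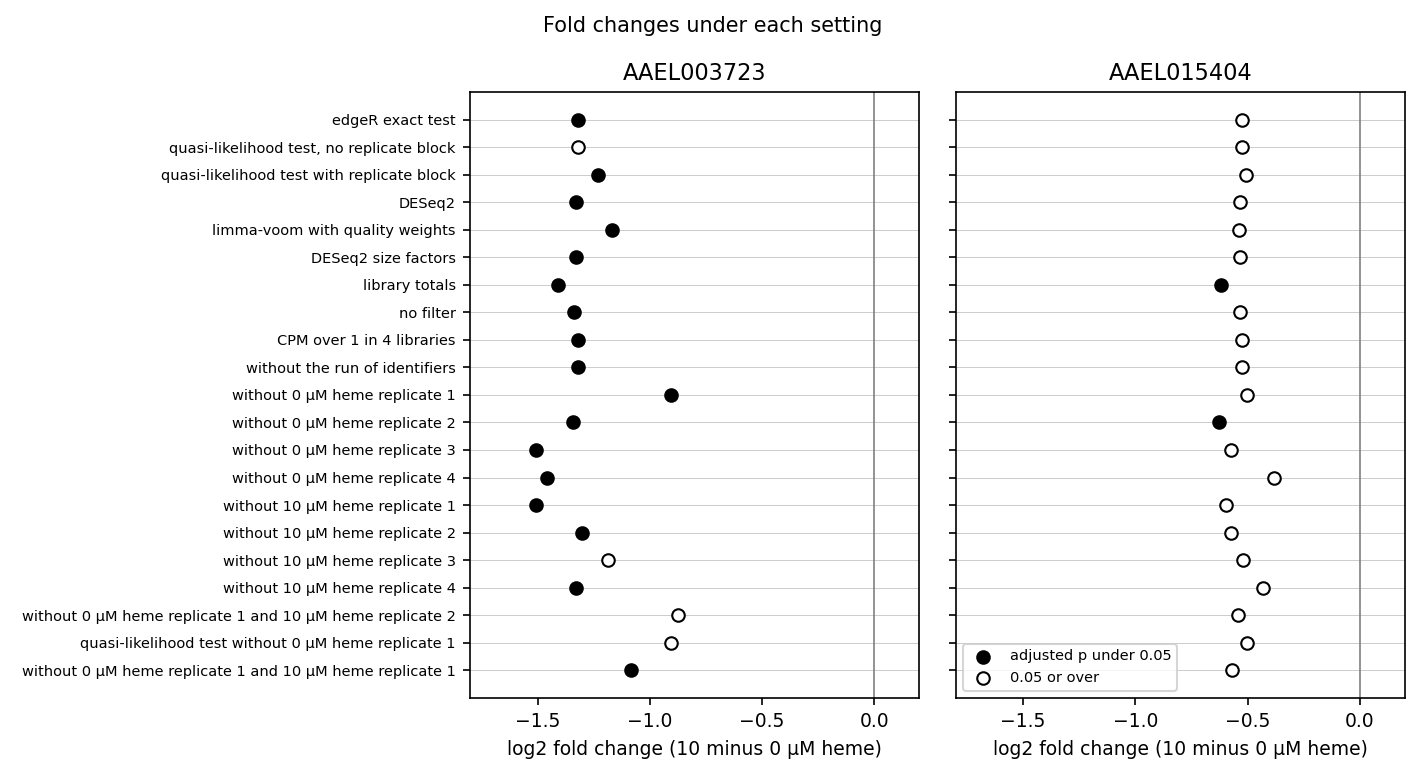
Log2 fold change (10 minus 0 µM heme, horizontal axis) of AAEL003723 and AAEL015404 under the exact test and each alternative (vertical axis). Filled points had an adjusted p under 0.05; all values lie below 0, from -1.51 to -0.88 for AAEL003723 and from -0.63 to -0.38 for AAEL015404.

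Under the 20 alternatives tried, no fold change of either gene changed sign, as the plot of fold changes by setting shows. All of them reused the same 8 libraries or some of these, so an unchanged sign is weak evidence. AAEL003723 kept its call in 16 of the 20 and lost it in 4. AAEL015404 stayed without a call in 18 and gained one in 2.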

How the data were processed

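Per the study's methods and the submitters' processing notes, single-end reads of midgut polyA RNA were aligned by the authors to AaegL5 with HISAT2 2.1.0, alignments of mapping quality under 10 were discarded with SAMtools, and bedtools 2.19.1 gave the reads per transcript. The table that the authors deposited holds raw counts for each identifier, not normalized, with replicates separate. How strand, introns and overlapping transcripts were treated is not stated in those sources. The quality filter can remove reads shared by near-identical copies, so counts of a gene family may be too low. Groups came from the labels. Whether replicates came from separate batches of insects is not stated, so p-values set each group difference against the variation between these libraries only.

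The whole table was fitted with edgeR 4.0.16 (R 4.3.3) by its exact test, after default filterByExpr (11095 of 19712 identifiers, 2 of the 3 lysozymes), TMM scaling and estimateDisp. Tests were two-sided and adjusted by Benjamini-Hochberg over all identifiers tested, with a threshold of 0.05. Fold changes are 10 minus 0 µM heme. The SE is that of the difference of group means of log2 CPM (prior count 2). The fold change printed beside it is edgeR's own estimate and is not that same difference. Counting error is 1 over the square root of the count and covers counting only. Named genes were the lysozymes, the 2 identifiers most alike in pattern to each one called, and the immune gene and tissue markers that the study annotates, to which AAEL009853 was added after its values were seen. Alternatives were the quasi-likelihood test of edgeR with and without a replicate block, limma 3.58.1 (voom, quality weights), DESeq2 1.42.0, other scalings and filters, and left-out libraries. The tests were checked on simulated data, drawn independently for each library. No simulated library was made to stand apart, so that check does not cover the library effects described above. The lysozymes were picked by annotation, but they and the lists were proposed with earlier results of these data known. The identifiers had 0 matches in the RefSeq gene table of AaegL5.0, so no positions, lengths or sequences are given.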

Additional observations from a re-analysis of the deposited data

Results flagged for a closer look

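In 24 groups of 4 values examined, which covered the lysozymes, their sum and ratio, the markers and the most alike identifiers, 1 had a library set apart from the others by more than Dixon's 95% critical value, and about 1.2 would be so by chance. AAEL009853, the putative digestive protease, had 11.4 CPM in 0 µM heme replicate 2, below the 14.7 to 15.1 CPM of the other libraries of that group, with a gap of 0.908 of the range of the group. No lysozyme value was set apart in this way.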

How the results depend on the processing

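Directions of AAEL003723 and AAEL015404 held under all 20 alternatives, each of which reused the same 8 libraries or some of these. Among the 20, the quasi-likelihood test without 0 µM heme replicate 1 and the exact test without replicate 1 of both treatments were chosen after the data were seen. Of the 2 lysozymes tested, the exact test called 1, the quasi-likelihood test 0 and library totals 2. In the quasi-likelihood test both had an unadjusted p under 0.05 (2 of 2), as had 1665 of 11095 identifiers, and with library totals 3.98% of all identifiers were called. The quasi-likelihood test called 316 identifiers and gave AAEL003723 at -1.32 (adjusted p = 0.0772). Without 0 µM heme replicate 1, the same test called 308 identifiers and 0 lysozymes, with AAEL003723 at -0.90 (adjusted p = 0.0841). The exact test without 0 µM heme replicate 1 and 10 µM heme replicate 2 called 0 lysozymes, with AAEL003723 at -0.88 (adjusted p = 0.0581). Library totals gave AAEL015404 at -0.62 (adjusted p = 0.0265), with 32.1% of all calls higher with heme, against 47.9% under TMM. Leaving out single libraries gave 0 to 2 lysozymes and 333 to 549 identifiers, with AAEL003723 at -1.51 to -0.90 (adjusted p = 0.000615 to 0.0624) and AAEL015404 at -0.63 to -0.38 (adjusted p = 0.0354 to 0.425). No lysozyme was called without 10 µM heme replicate 3, and both were called without 0 µM heme replicate 2. The cause of these changes was not tested, beyond the smaller number of libraries by construction.

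The shared replicate numbers were not used as pairs. The correlation between same-numbered libraries of their deviations from the group means, taken across genes that are not independent, was 0.515 for replicate 1, 0.0702 for replicate 2, 0.0616 for replicate 3 and 0.157 for replicate 4, and not every library correlated best with its own number. The quasi-likelihood test with a replicate block called 725 identifiers and 1 lysozyme, AAEL003723 (-1.23, adjusted p = 0.00747), while AAEL015404 stayed without a call (-0.51, adjusted p = 0.140). AAEL003712 had at most 22 counts in a library, and how far depth or replicate spread limited its comparison was not tested.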

Other observations

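About its group mean on the log2 CPM scale, AAEL003723 lay highest in replicate 1 of both treatments, at 0.46 in the 10 µM heme library and 0.94 in the 0 µM heme library, and lowest in replicate 3 of both, at -0.45 and -0.62. AAEL015404 did not share this order, with deviations of -0.30 in 10 µM heme replicate 4 and 0.39 in 0 µM heme replicate 4.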
